A study of Rattus norvegicus with 3 samples.

Results

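In livers of newborn rats, 18323 regions of the genome were listed as higher in methylated-DNA signal in MLP than in MLP-F and were absent from both lists made against the control diet. They were selected on their place in the 3 lists: a region of the MLP vs. MLP-F list on chromosomes 1 to 20 was taken when it shared not even 1 bp with any region of the MLP vs. C list or of the MLP-F vs. C list. They made up 18323 of the 31671 MLP vs. MLP-F regions on these chromosomes, or 57.9%, and were drawn from 95306 regions in the 3 lists together. Their scores, and their absence from the other lists, are therefore a description and were not tested. They are called folate-contrast regions here, after the single comparison that lists them.

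The MBD-seq libraries came from liver DNA of male Wistar rats aged 1 day. The groups are named by the dams' diet: casein was 18% of the diet in C and 9% in MLP (maternal low protein) and MLP-F. Folic acid was 1 mg/kg in C and in MLP, and 5 mg/kg in MLP-F. MLP and MLP-F thus shared the low protein diet and differed in the added folic acid, while C differed from both in protein. DNA of 6 animals per group was pooled by the labels. The study's text gives another number of animals and places each group in a single litter, so diet, litter and library cannot be told apart. Whole liver of this age also holds blood-forming cells, and a change in the mix of cells cannot be told apart from a change within a cell type.

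Methylation of cytosine in CpG pairs is copied to the new strand when DNA is replicated, and its methyl groups come from S-adenosylmethionine, which the folate and methionine cycles resupply. In MBD-seq, a protein domain that binds methylated CpG pulls such fragments from sheared DNA, and the captured fragments are sequenced. The signal at a region rises with its methylation and with the number of its CpGs, and it is no percentage of methylated cytosines. Outside promoters, in introns and between genes, most CpGs of mammalian liver are methylated.

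Each deposited region carries its bounds and a score from MACS, a peak caller that set one library against the other. The score is the −log10 of that p, multiplied by 10. A score of 50 is the cut-off of the lists. It is a cut-off on the p of single regions, with no false discovery rate in the files, so a listed region is not read here as a called difference. For MLP vs. C, the study refers to its deposited data for a larger collection at a looser false discovery rate. That rate could not be checked from the files. For MLP-F vs. C the study reports that no differentially methylated regions were found. Of the 18323 regions, 4 are also among the DMRs (differentially methylated regions) annotated after a stricter selection on false discovery rate. These 4 are DMRs of MLP vs. MLP-F, since the rule leaves out those of MLP vs. C. The study reports a total of such DMRs for its whole MLP vs. MLP-F comparison. It is not set beside the 4 here, so the 4 are not read as few or many. Positions are on the rat assembly rn4 and are 1-based. The files hold no read counts, so the depth behind a region is unknown. By the study's library statistics the MLP library was the deepest and the C library the shallowest, and the part of depth in these lists was not tested. Each group had 1 library, so there is no SD. The intervals given with shares of regions are 95% Wilson intervals for counting error alone.

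The rule turned out to be a clean one on the MLP vs. C side. Of the MLP vs. MLP-F regions that overlapped the MLP vs. C list, 13322 of 13322 had the same start and the same end in both. Regions therefore matched base for base or did not touch at all, and a folate-contrast region is an MLP region that was listed against MLP-F and not against C. No overlap of 50 bp or less with an MLP vs. C region occurred (0 regions), although 44 folate-contrast regions lay within 50 bp of one. The closest stood 2 bp away, on chromosome 17 (11282452 to 11283122, score 124), beside an MLP vs. C region at 11283125 to 11283661 with a score of 72.6. The next gaps were 5 bp on chromosome 15 and 6 bp on chromosome 12.

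Against the MLP-F vs. C list the limit was less sharp, since 0 of 402 overlapping regions had the same bounds. There 8 folate-contrast regions lay within 50 bp of a listed region, the closest at 11 bp (chromosome 9, 57022174 to 57022964, score 56.7). A further 6 regions missed the rule by an overlap of 50 bp or less, the smallest of 5 bp (chromosome 3, 47856969 to 47857768, score 54.1). At the score cut-off, 3 folate-contrast regions stood at exactly 50, on chromosomes 1, 13 and 9. Of the other MLP vs. MLP-F regions, 12946 (40.9%) overlapped the MLP vs. C list alone, 376 (1.19%) both lists and 26 (0.0821%) the MLP-F vs. C list alone.

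Folate-contrast regions were mostly of modest score. Their median was 75.2, the middle 50% ran from 59.6 to 108, and the highest reached 3014. Regions shared with MLP vs. C alone had a median of 94.2, and all MLP vs. MLP-F regions had one of 81.4. A score of at least 100 was held by 5335 folate-contrast regions, 29.1% of them (28.5 to 29.8%), beside 36.3% of the whole list. At 200 or more stood 1131 of them (6.17%), beside 10.4% of the whole list. At 1000 or more stood 10 (0.0546%), beside 0.227% of the whole list.

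The share of the list that was in neither other list fell at each step of score. It was 68.8% (4810 of 6991) for scores from 50 to below 60 and 54.2% (3137 of 5784) from 100 to below 150. It was 38.3% (749 of 1957) from 200 to below 300 and 13.9% (10 of 72, interval 7.72 to 23.7%) at 1000 or more. Folate-contrast regions were thus most of the weakest MLP vs. MLP-F regions and a small share of the strongest. Both the score and the place in the lists come from the same 3 libraries, so the fall describes the lists and was not tested.

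**Figure D1:**
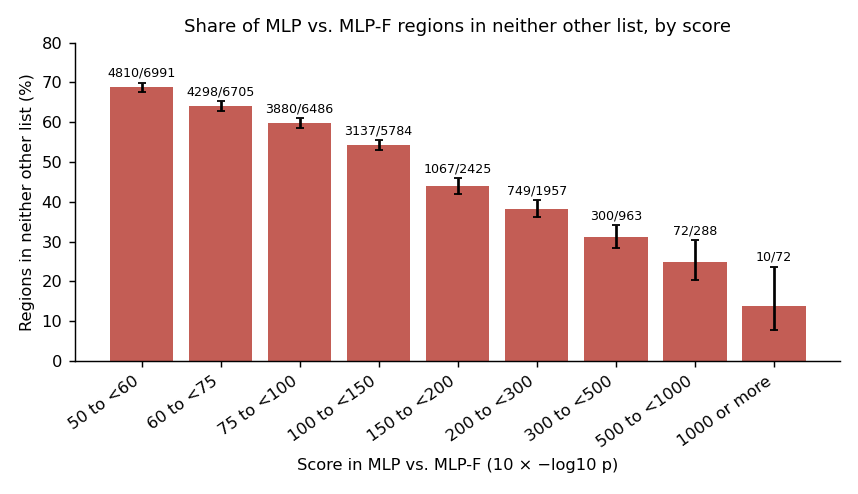
Percent of MLP vs. MLP-F regions on chromosomes 1 to 20 that were in neither other list, for 9 ranges of score (10 times −log10 p), with 95% Wilson intervals as bars and the counts above them. The share falls from 68.8% in the lowest range to 13.9% in the highest.

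In length the folate-contrast regions were close to the rest. Their median was 719 bp, with quartiles of 546 and 961 bp, against 724.5 bp for regions shared with MLP vs. C alone. Together they covered 14.7 Mb. Regions of 2 kb or more numbered 271, or 1.48% of them, beside 1.32% of the whole list. Between 56.5% and 58.1% of the list was in neither other list in each range of length up to 1500 bp. The share was 63.0% (629 of 998) from 1500 to below 2000 bp and 77.8% (14 of 18, with a lower bound of 54.8%) at 4000 bp or more. Length also moved with score: the median rose from 640 bp for scores below 60 to 1781 bp for the 10 regions at 1000 or more.

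The longest folate-contrast region was 12223 bp, on chromosome 7 (114203837 to 114216059), with a score of 439. It ended or began 514 bp from an MLP vs. C region with a score of 64.8. The next was 8876 bp on chromosome 6 (137765578 to 137774453, score 113). A region of 6205 bp with a score of 126 lay on the same chromosome at 137720502 to 137726706. The other long regions were 6719 bp on chromosome 7 (8178298 to 8185016, score 217) and 6620 bp on chromosome 20 (19368440 to 19375059, score 62.8). These 5 scores run from 62.8 to 439, so the longest regions were not the strongest.

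**Figure D2:**
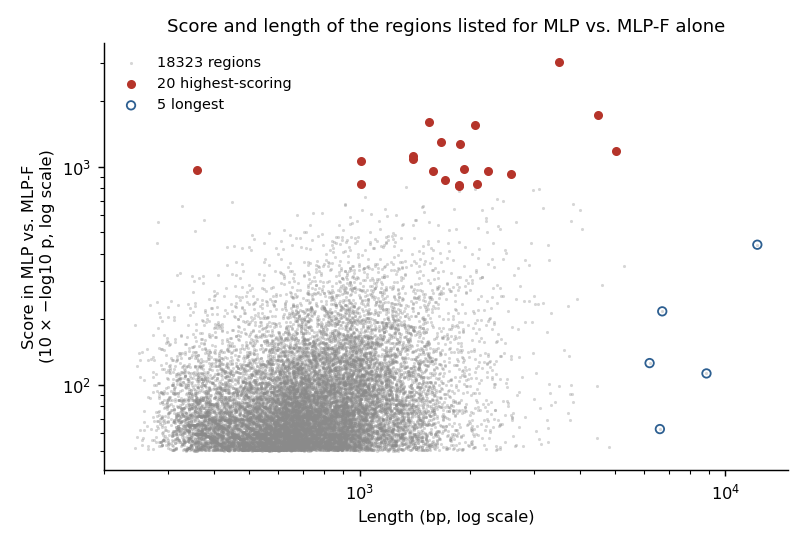
Score in MLP vs. MLP-F against length in bp for the 18323 folate-contrast regions, with log scales on both axes; the 20 with the highest scores are drawn in red and the 5 longest as open circles. The 20 highest-scoring regions have scores of 812 or more and a median length of 1872 bp, and the 5 longest lie between 6205 and 12223 bp.

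The strongest folate-contrast region lay on chromosome 1 at 67550196 to 67553701, with 3506 bp and a score of 3014. It stood at place 6 of the whole MLP vs. MLP-F list, and the study's annotation gives it no gene name. Around it, 6 further MLP vs. MLP-F regions lay within 50 kb, of which 3 were folate-contrast regions. One of these, at 67587156 to 67589042, scored 1277 and is itself among the 10 strongest. Among them stood regions shared with the MLP vs. C list, with scores against C of 103, 70.2 and 106 and against MLP-F of 126, 108 and 470. Regions listed against C and regions not listed against C thus lay side by side within 50 kb.

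The second, on chromosome 7 at 11241190 to 11245662, had a score of 1733 over 4473 bp. It is annotated to Mbrl, as downstream of the gene, a side that was not checked here. The nearest MLP vs. C region was 9035 bp away with a score of 90.3. The third, on chromosome 8 at 55845786 to 55847334, scored 1610 and stood alone. No other MLP vs. MLP-F region lay within 50 kb of it, and the nearest regions of the other lists were 140243 bp away (MLP vs. C) and 140208 bp away (MLP-F vs. C). Its annotation names no gene.

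The fourth lay in an intron of Vti1a, a SNARE protein of vesicle traffic between the Golgi and endosomes, on chromosome 1 at 261708399 to 261710471. It had a score of 1551 over 2073 bp. A second folate-contrast region at 261707786 to 261708159 scored 196 and was only 239 bp away. MLP vs. C regions of lower score stood on both sides of this pair, the nearest 14029 bp away with a score of 66.1, and so did MLP-F vs. C regions. Around this pair, then, separate stretches of DNA were listed for the folate contrast and for the contrasts with C. Whether the regions listed against C all lie within Vti1a was not determined.

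The remaining regions at 1000 or more were on chromosome 1 at 79675084 to 79676758 (score 1302) and at 118368141 to 118369152 (1059), on chromosome 17 at 4283267 to 4288280 (1183), on chromosome 7 at 139976445 to 139977843 (1121) and on chromosome 3 at 159751259 to 159752659 (1089). The chromosome 17 region was 5014 bp long and lay 259 bp from an MLP vs. C region with a score of 257. The chromosome 3 region lies in Nfatc2, described with the genes below. Places 11 to 20 had scores from 812 to 976. Of the 20 strongest, 19 were at least 1000 bp long and the other was 359 bp (chromosome 6, 91323076 to 91323434, score 965). They were spread over 11 chromosomes, with 5 on chromosome 1 and 3 on chromosome 7, and 9 lay within 10 kb of an MLP vs. C region. Of all folate-contrast regions, 22.2% were at least 1000 bp long and 31.6% lay within 10 kb of an MLP vs. C region. Chromosome 1 held 10.7% of all and chromosome 7 held 6.44%. The 20 were picked for their scores, and these traits were not tested.

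**Figure D3:**
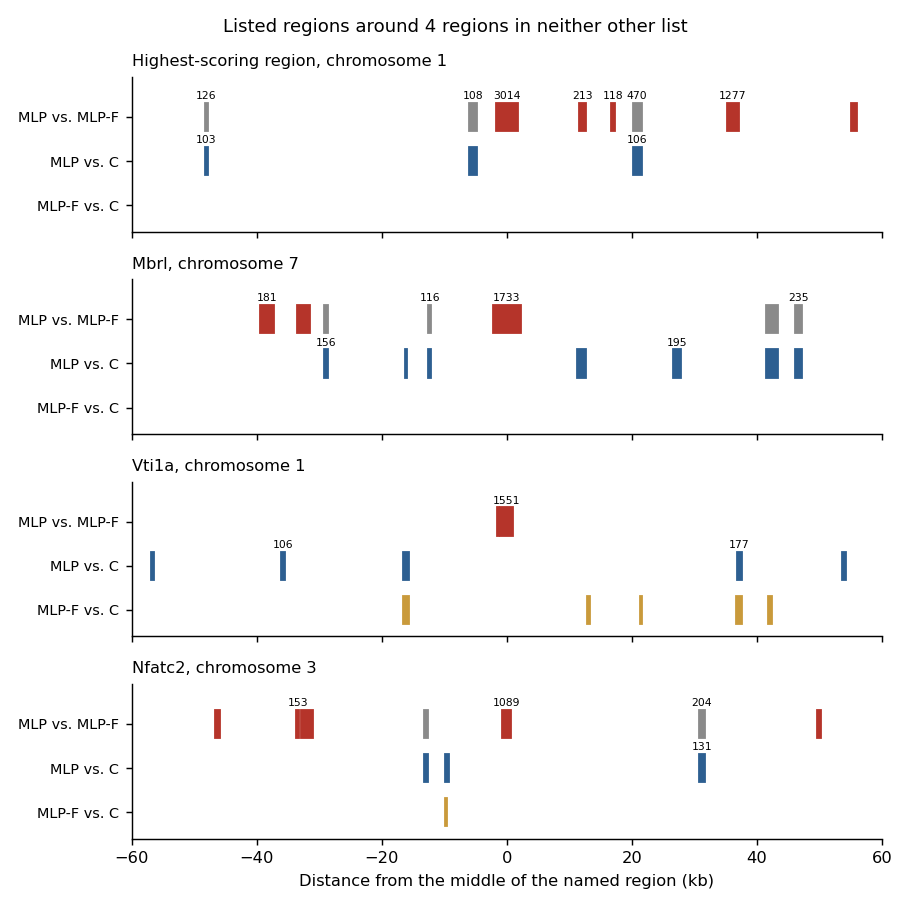
Regions of the 3 lists around 4 of the strongest folate-contrast regions, by distance in kb from the middle of each; red boxes are folate-contrast regions, grey boxes MLP vs. MLP-F regions that are also in another list, blue MLP vs. C and yellow MLP-F vs. C regions. Numbers are scores of 100 or more (where labels would overlap, the higher one), up to 3014, and each central red box has no counterpart in the other rows.

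Folate-contrast regions were found on every chromosome from 1 to 20. Their density ran from 5.27 per Mb on chromosome 2 to 16.4 per Mb on chromosome 12, followed by chromosomes 20 (11.1), 10 (10.5) and 19 (9.68). The other MLP vs. MLP-F regions were densest on the same chromosome 12, at 10.3 per Mb, and the MLP vs. C list held 24.5 regions per Mb there. The folate-contrast share moved far less, from 52.5% of the list on chromosome 18 (49.4 to 55.7%) to 62.1% on chromosome 10 (59.9 to 64.3%). Chromosomes 12, 20, 10 and 19 were also the densest in the other MLP vs. MLP-F regions and in the MLP vs. C list. The MLP-F vs. C list followed less closely. On chromosome 5 it held 7.56 regions per Mb, its lowest density on chromosomes 1 to 20, beside 8.03 folate-contrast regions per Mb.

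**Figure D4:**
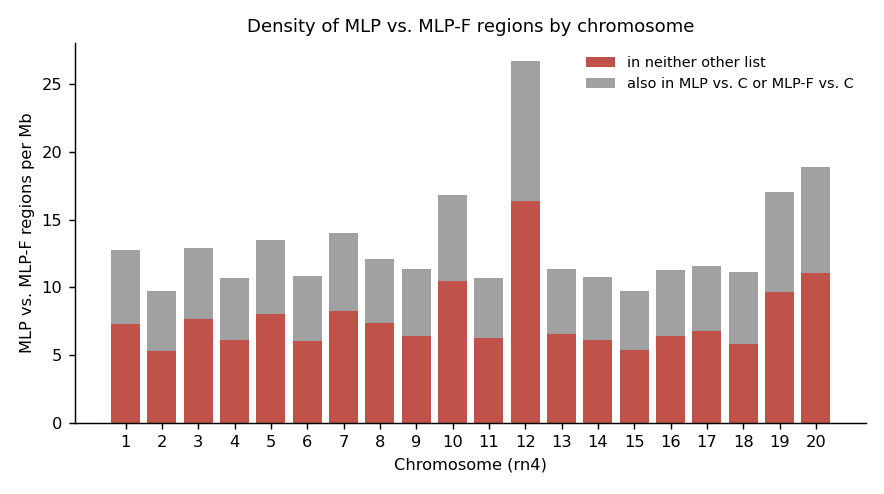
MLP vs. MLP-F regions per Mb of each chromosome (length taken as the largest listed end), with folate-contrast regions in red and the rest of the list stacked in grey. Chromosome 12 has 16.4 folate-contrast regions per Mb and chromosome 2 has 5.27, while the red share of each bar stays between 52.5% and 62.1%.

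In windows of 1 Mb the median was 6 folate-contrast regions over 2570 windows. The fullest windows were chromosome 20 from 4000001 to 5000000 and from 5000001 to 6000000, with 44 regions each. They were followed by chromosome 1 from 95000001 to 96000000 (41), chromosome 7 from 10000001 to 11000000 (40) and chromosome 1 from 209000001 to 210000000 (37). In these 5 windows the folate-contrast share was 74.6%, 71.0%, 64.1%, 59.7% and 74.0%, against 57.9% over the list. The windows were chosen by their counts of folate-contrast regions, a choice that favours high shares, and the shares were not tested. Windows with 20 or more numbered 119 and held 15.8% of the folate-contrast regions.

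At a finer scale most stood apart from each other. The median gap between neighbouring folate-contrast regions was 69.2 kb, and 434 neighbouring pairs (2.37%) were within 1 kb. The largest run with gaps of at most 1 kb was 4 regions on chromosome 2 (122664925 to 122670540), with scores from 173 to 327. With gaps of up to 5 kb the largest run was 7 regions on chromosome 10 (108037972 to 108057035), with scores from 59.3 to 159.

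Most folate-contrast regions had a region of another list within 100 kb. The nearest MLP vs. C region was at a median of 19385 bp (quartiles 7394.5 and 45105.5 bp), and the nearest MLP-F vs. C region at a median of 33331 bp. Within 1 kb of an MLP vs. C region lay 823 folate-contrast regions (4.49%), and within 10 kb lay 5782 (31.6%, 30.9 to 32.2%). For MLP-F vs. C the counts were 315 (1.72%) and 3530 (19.3%). A total of 902 (4.92%) lay over 100 kb from both, and the strongest of these was the chromosome 8 region with the score of 1610. The MLP-F vs. C list is the shorter one, with 25578 regions against 35998 for MLP vs. C.

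**Figure D5:**
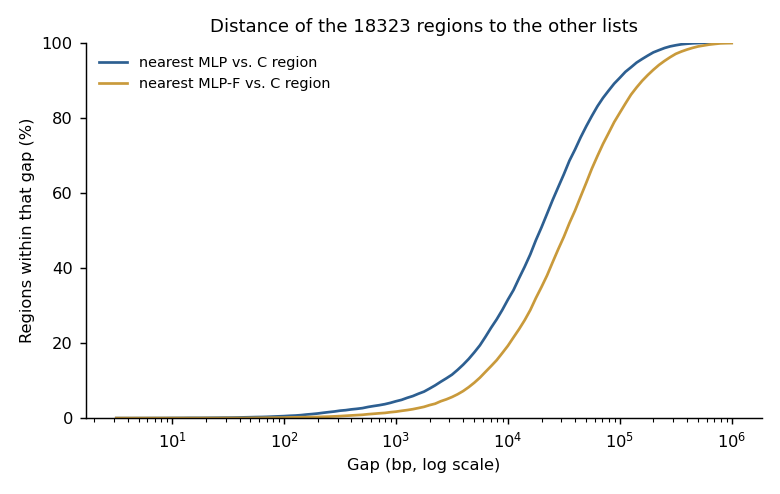
Percent of the 18323 folate-contrast regions within a given gap (bp, log scale) of the nearest MLP vs. C region (blue) and the nearest MLP-F vs. C region (yellow). At 10 kb the curves stand at 31.6% and 19.3%.

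Genes could be placed around the folate-contrast regions only where the study's own annotation of its DMRs fixes them, since no rn4 gene models were used. A gene's start was taken from the annotated distances of 2 or more DMRs, and its body as the stretch from that start to its farthest intronic DMR. These genes were found through MLP vs. C DMRs, which the folate-contrast regions avoid by rule, so no share of regions within them is read as a result. The annotation's words upstream and downstream conflict with its own positions at Nfatc2 and were not used to order regions. The gene bodies are therefore approximate, and so are the counts of regions held by each gene. Of 38 genes with such a body, 27 held at least 1 folate-contrast region and 11 held none. In all there were 58 folate-contrast regions among 137 MLP vs. MLP-F regions in these bodies (42.3%). Their median score was 75.1, and 17 of the 58 had scores of 100 or more. Over all folate-contrast regions the median was 75.2, and 29.1% had scores of 100 or more.

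Nfatc2 and Runx1 were among the 6 genes with 4 or more, beside Adk, Dym, Odz2 and Q8CIN3_RAT. Nfatc2, a calcineurin-dependent factor that drives cytokine genes in T cells, held 4 on chromosome 3. Their scores were 68.1 (159705289 to 159706091), 153 (159718264 to 159718757), 76.1 (159719090 to 159720895) and 1089 (159751259 to 159752659). A single one of the 4 was thus strong, and the nearest MLP vs. C region to it was 8557 bp away with a score of 76.8. Runx1, a factor that blood stem cells need to form, held 4 on chromosome 11, with scores of 77.7 (32696843 to 32697183), 80.9 (32706231 to 32706897), 123 (32711104 to 32712008) and 131 (32718062 to 32719054). These 4 lay together, all over 30 kb from the nearest MLP vs. C region, the closest of them at 31647 bp. Erg, an ETS-family factor of blood stem cells and endothelium, held 1 with a score of 63.2 (chromosome 11, 35681958 to 35682460), 1538 bp from an MLP vs. C region. Skap1, an adaptor of T cell receptor signalling, held 1 with a score of 62.9 (chromosome 10, 85252369 to 85252971).

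Genes of metabolism and of membrane traffic held further ones. Adk, adenosine kinase, removes the adenosine that the methylation cycle releases, and its body on chromosome 15 held 4 folate-contrast regions. Their scores were 56.9 (3123536 to 3124231), 76.4 (3341779 to 3343275), 68.5 (3385142 to 3385738) and 51.7 (3423079 to 3423495), none reaching 100. Dym, a Golgi protein needed for skeletal growth, held 4 on chromosome 18 with scores of 59.9, 151, 149 and 87.2, between 71961784 and 72098581. Ap3b1, a subunit of the AP-3 coat for lysosomal cargo, held 1 with a score of 116 (chromosome 2, 24696372 to 24696888). Wdfy3, a scaffold of selective autophagy, held 3 on chromosome 14, with scores of 62.7, 140 and 54.3. Bbs9, part of the complex that carries cargo to cilia, held 2 on chromosome 8, with scores of 89.6 and 207.

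Genes best known from the nervous system were present as well. Odz2, a teneurin of the neuronal surface, held 4 on chromosome 10 with scores of 62.8, 66.7, 101 and 52.0. Sema3f, a secreted guidance cue, held 1 with a score of 125 (chromosome 8, 112938077 to 112939665). Near fixed gene starts, within 2 kb, that of Eya4, a phosphatase and transcriptional co-activator, had 1 region inside the gene (chromosome 1, 22847125 to 22847677, score 51.7). That of Smyd3, a methyltransferase, had 1 (chromosome 13, 94794002 to 94794624, score 66.2), on a side that could not be fixed.

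Zfp385b, a zinc finger gene, held 3 on chromosome 3, with scores of 195 (60169779 to 60171303), 71.6 and 63.6, the first of them 398 bp from an MLP vs. C region. Znf704, another, held 1 with a score of 171 (chromosome 2, 94222292 to 94222832). The gene with the most, Q8CIN3_RAT on chromosome 15, held 5 with scores from 50.7 to 103 among 12 MLP vs. MLP-F regions. The other genes, Atrnl1 (3), Ehbp1, Phactr1, Phgdhl1 and a gene with no name (2 each), and Aig1, Kcnip1, Ndst3, RGD1309501 and Rgl1 (1 each), had scores under 100.

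A wider search took folate-contrast regions within 10 kb of an annotated DMR, in a gene or not. By rule none overlapped an annotated MLP vs. C DMR. There were 234 such regions, beside 202 of 1145 annotated DMRs (17.6%) that carry 170 gene names. Next to the DMR of Ccnd1, cyclin D1, which drives entry into the cell cycle, a folate-contrast region with a score of 168 lay 3771 bp away (chromosome 1, 205458251 to 205458637). Near Ppard, a nuclear receptor of fatty acid oxidation, one with a score of 88.8 lay only 128 bp from the gene's intronic DMR (chromosome 20, 6496501 to 6497521). Near Cdc2l6, a kinase of the Mediator complex, one scored 77.9 (chromosome 20, 44640800 to 44641569). It lay 4208 bp from the gene's intronic DMR, which scored 1774 against C. The stretch taken as the body of Cdc2l6 held no folate-contrast region. A region near Runx1, at 32958668 to 32959487 with a score of 55.8, was 3870 bp from another DMR of that gene. Of these neighbours, the one at Ccnd1 scored above the upper quartile of all folate-contrast regions, 108, and the others below it.

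Apart from genes already described, such as Vti1a (196) and Zfp385b (195), the 10 highest scores near annotated DMRs with a gene name are given next. They were 481 near Ttc14 (chromosome 2, 119891339 to 119892566), 287 near Ahdc1 (chromosome 5, 152046279 to 152050877, 4599 bp long) and 265 near Taok3, a stress-activated kinase. They went on with 261 near She and 254 near Mta3, a subunit of the NuRD repressor complex, 219 bp from its intronic DMR (chromosome 6, 7157560 to 7158396). The next were 220 near a locus named 7SK on chromosome 17, 218 near B2GUX3_RAT and 213 near LOC679641. The annotation gives the name 7SK to loci on several chromosomes, and whether this copy is active was not tested. Last came 194 near Scp2, which carries sterols and fatty acids, and 193 near Clip1, a microtubule plus-end protein. Each of these 10 lay beside a DMR that scored between 122 and 128 against C. Most annotated DMRs near other folate-contrast regions scored in a similar band, so it is no trait of these 10. The 10 regions were picked for their scores, so the sizes of the pairs are not compared.

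By gene list, it was counted how many genes with an annotated DMR also had a folate-contrast region in the gene or within 10 kb of the DMR. The same count over all genes with an annotated DMR is not given, so no list is read as high or low. In the list of T cell and immune regulation this held for 2 of 15 genes (Nfatc2 and Skap1), of 53 in the list. Among blood cell genes it held for 2 of 2 (Erg and Runx1), of 22. For cell cycle genes with E2F and MCM the count was 2 of 7 (Ccnd1 and Cdc2l6), of 39, and for lipid metabolism and fatty acid oxidation 1 of 9 (Ppard), of 48. It was 0 of 5 for insulin and FOXO signalling, 0 of 4 for polycomb and trithorax, and 0 of 2 each for hepatocyte genes, one-carbon metabolism with DNA methylation, and renin-angiotensin with glucocorticoid signalling. The rest of each list had no annotated DMR, so a folate-contrast region near those genes was not looked for here. The 17.6% given above counts DMRs with a folate-contrast region within 10 kb. The list counts are of genes and also take in gene bodies, through which alone Nfatc2 and Skap1 were counted, so they are not the same measure.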

How the data were processed

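MBD-seq libraries of liver DNA, 1 pooled library for each of C, MLP and MLP-F, were analysed. Read pairs were aligned by the authors with Bowtie against rn4, and MACS called regions at a p cut-off of 1e-05. CASAVA, Bowtie and rn4 are named in the submitters' processing notes, and no version of a tool is stated there. The deposited lists give positions and a score, which the authors obtained as 10 times the −log10 p of MACS, with no counts.

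Starts were made 1-based and an overlap of 1 bp or more joined regions of 2 lists, a step tested on simulated regions. Groups came from the labels, and no test was run. The regions and gene lists were chosen with earlier results of these data known. Named are the 20 highest-scoring and 5 longest regions, those with an annotation, those in bodies of genes fixed by 2 or more annotated DMRs, those within 10 kb of DMRs of 9 gene lists and the 10 strongest near other named DMRs, and the 5 fullest windows of 1 Mb. Eya4 and Smyd3 were also named for regions near their starts, a choice made after their values were seen. A gene that met the rule is not reported here. Alternatives were a reciprocal overlap of 50%, a gap of 1 or 10 kb counted as shared, a score of at least 100, and all sequence. No sequence or gene model of rn4 was used here. Python 3.11.15, numpy 2.4.6, pandas 2.3.3, SciPy 1.17.1 and matplotlib 3.10.9 were used.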

Additional observations from a re-analysis of the deposited data

Results flagged for a closer look

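Outside chromosomes 1 to 20, further MLP vs. MLP-F regions were in neither other list, with signal that the report does not use. On chromosome X there were 734 of 1276 regions (57.5%), with a median score of 83.0 and a highest score of 443. On sequence not placed on a chromosome there were 451 of 783 (57.6%), with a median score of 78.9 and a highest of 1179. Both shares lay within the range of 52.5% to 62.1% seen over chromosomes 1 to 20.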

How the results depend on the processing

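Of 24 alternatives over 6 results, 16 left the value within its counting interval or, for the count of regions, within 1.5 times. The other 8 moved it further. The results are counts, shares and medians, which have no direction to turn. When a gap of up to 10 kb to another list counted as shared, 10952 regions (34.6%) remained in the count, and with a gap of 1 kb the share was 54.6%. With MLP vs. MLP-F scores of at least 100, the count was 5335 and the share 46.4%. When regions of the other lists counted only at scores of at least 100, the share rose to 81.4% (25780 regions), so 57.9% depends on the cut-offs of the lists. The share within 10 kb of an MLP vs. C region was 28.2% with the 1 kb gap and 30.9% with all sequence. Median score and length kept within their intervals under a reciprocal overlap of 50%, the 1 kb gap and all sequence. No paired analysis was possible because each group had 1 library and the results come from no test. A region missing from a list may still differ between those libraries, and the depth of each region is unknown.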
